A study of Mus musculus with 11 samples.

Results

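Serine, glycine and threonine are broken down in the liver by a small set of enzymes, and serine is made there by another. The group described here has 10 of these enzymes: the serine dehydratases Sds and Sdsl, the glycine cleavage proteins Gldc, Amt and Gcsh, the serine hydroxymethyltransferase Shmt1, the threonine enzymes Tdh and Gcat, and the serine synthesis enzymes Phgdh and Psph. A gene probe was counted for one of these listed genes when it was designed on one of that gene's transcripts. All 10 genes had such a probe, 16 probes in all, out of 20144 genes that could be named on the array.

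The RNA came from livers of db/db mice, which lack a working leptin receptor and become obese and diabetic, a defect both groups carried. One group had received 5 mg/kg of 3c7.v44 mAb, an antibody against the glucagon receptor (anti-GCGR, 6 samples numbered 1 to 6), and the other PBS, the saline vehicle (5 samples numbered 1, 3, 4, 5 and 6). The age of the mice and the time between dosing and sampling are not given in the sources used here, nor do the labels state that no mouse gave several samples, so the p-values speak of the spread among the samples only. Each liver sample, labelled with the dye Cy5, shared its array with a commercial mouse reference RNA labelled with Cy3. Values are log2 of liver over reference unless stated otherwise, and a log2 fold change is the anti-GCGR mean minus the PBS mean.

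Glucagon signals to hepatocytes that amino acids should be taken up and burned or turned into glucose. Sds and Sdsl convert serine to pyruvate, and in rats the liver serine dehydratase is a classical target of glucagon and of protein feeding. The glycine cleavage system splits glycine into carbon dioxide, ammonia and a one-carbon unit held by folate, with Gldc, Amt and Gcsh as its P, T and H proteins. Shmt1 interconverts serine and glycine in the cytosol. Tdh and Gcat act in sequence to turn threonine into glycine and acetyl-CoA. Phgdh starts the synthesis of serine from a glycolytic intermediate, and Psph removes the phosphate in its last step.

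Among the 10 genes, 1 rose and 2 fell at an adjusted p under 0.05 (limma, Benjamini-Hochberg over 15972 genes, two-sided), where 14.6% of all genes tested passed, 8.98% upward and 5.66% downward. Gcat was 1.75-fold lower and Sdsl 1.24-fold lower in anti-GCGR livers, and Psph was 1.33-fold higher. No member had groups that did not overlap, which 6.64% of all genes had. The median log2 fold change over the 10 genes was -0.06, beside 0.01 over all genes tested. The other 7 members, among them all 3 glycine cleavage genes, did not pass.

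Gcat and Psph were the members that passed in each of the 11 fits that left out 1 array, and the DNA before their start sites is shown for that reason, together with that of Phgdh, which opens the pathway that Psph closes and did not pass. The windows hold the 250 bases before the annotated start in RefSeq (build GRCm38.p6), 5′ to 3′ on the strand of the gene, and capitals mark CCAAT or its reverse complement ATTGG. They lie at chr15:79030624-79030873 on the plus strand for Gcat, chr5:129787254-129787503 on the minus strand for Psph and chr3:98339970-98340219 on the minus strand for Phgdh.
Gcat: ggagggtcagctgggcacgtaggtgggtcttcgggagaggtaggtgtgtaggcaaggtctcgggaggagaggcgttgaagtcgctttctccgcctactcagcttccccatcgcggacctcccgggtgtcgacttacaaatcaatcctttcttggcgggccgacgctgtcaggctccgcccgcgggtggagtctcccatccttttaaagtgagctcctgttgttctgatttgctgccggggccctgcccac
Psph: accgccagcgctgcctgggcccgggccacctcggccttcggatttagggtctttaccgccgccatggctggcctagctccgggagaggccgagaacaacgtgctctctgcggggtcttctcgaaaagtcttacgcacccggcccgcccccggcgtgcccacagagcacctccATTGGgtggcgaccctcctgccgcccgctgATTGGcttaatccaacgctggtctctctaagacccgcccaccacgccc
Phgdh: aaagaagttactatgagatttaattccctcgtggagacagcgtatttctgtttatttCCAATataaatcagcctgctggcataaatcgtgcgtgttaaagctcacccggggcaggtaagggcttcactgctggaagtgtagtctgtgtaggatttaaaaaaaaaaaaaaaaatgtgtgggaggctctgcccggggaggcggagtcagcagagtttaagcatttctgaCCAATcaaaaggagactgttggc

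RefSeq windows were at hand for 7 of the 10 members, the others being Sds, Sdsl and Tdh. They were searched on both strands for the cAMP response element TGACGTCA, found in 1.546% of 32851 mouse windows of this length, for its core TGACG, found in 17.77%, for the C/EBP-ATF element TGATGNAAT, found in 0.8158%, and for CCAAT, found in 33.85%. The core lies within the full element. Neither of the longer elements matched any of the 7 windows. The core matched in the window of Shmt1 alone, on the strand opposite the gene, 128 to 124 bases before the start. CCAAT matched 2 times before Psph (78 to 74 and 48 to 44 bases before the start, both on the opposite strand), 2 times before Phgdh (193 to 189 and 23 to 19 bases) and not before Gcat. Gcsh had 2 matches, and Gldc, Amt and Shmt1 had 1 each. Psph and Gcat windows held 67.2% and 61.2% G and C, and that of Phgdh 44%, beside a median of 52.4% over all windows.

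The arrays were alike in depth, with median Cy5 signals of 85 to 110 over a local background of 26 to 27 in scanner units, 66.2% to 77.1% of gene spots well above background, and 0 saturated spots. Anti-GCGR replicate 5 stood apart. Its values deviated from the mean of the rest of its group by a median of 0.129 on the log2 scale, beside 0.0786 to 0.0958 on the other 10 arrays. It sat at the PBS level for Gcat, Psph and the Cy5 signal of Sds. Without it 3868 genes passed in place of 2338, so values without it are given below beside those with it. The array was singled out from these same values, so lower p-values without it are no added evidence. The 9 hepatocyte markers measured had a median of 6.25 over the reference, and 0 of them passed (limma; 4 had an unadjusted p under 0.05). All 16 member probes were well above background in Cy5 on all 11 arrays. Of all genes that passed, 61.3% rose, beside 21.3% with median centring in place of loess, 45.2% with the scanner software's ratio and 51.3% with the Cy5 channel alone.

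**Figure D1:**
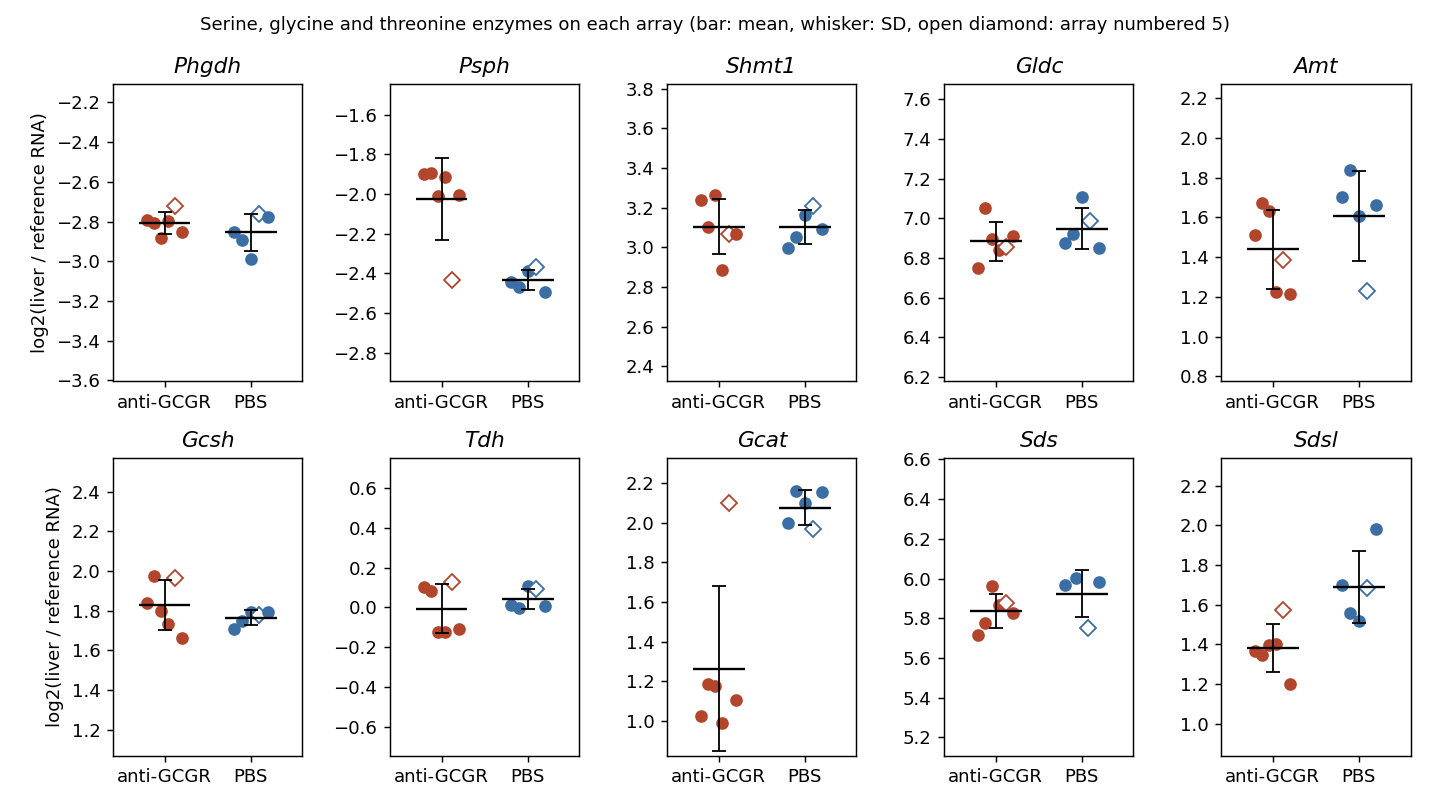
Log2 liver over reference of the 10 genes on each array (vertical axes, all spanning the same width), with anti-GCGR left of PBS, bars for means, whiskers for SD and an open diamond for the array numbered 5. Gcat and Psph of anti-GCGR replicate 5 lie among the PBS values, at 2.10 and -2.43, while the other anti-GCGR arrays lie apart from PBS.

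Gcat, the mitochondrial enzyme that completes threonine breakdown to glycine, showed the largest difference of the 10. Its values were 1.03, 1.19, 1.18, 0.99, 2.10 and 1.104 on anti-GCGR arrays 1 to 6, and 1.999, 2.16, 2.10, 1.97 and 2.16 on PBS arrays 1, 3, 4, 5 and 6. On 5 of the 6 anti-GCGR arrays Gcat was below every PBS array, and array 5 lay within the PBS range. The means were 1.26 ± 0.42 (SD, n = 6) with the antibody and 2.08 ± 0.09 (SD, n = 5) with PBS. The difference was -0.81 ± 0.16 (standard error, SE below, 95% interval -1.17 to -0.46, limma adjusted p = 0.00974, exact permutation p = 0.0108 over 462 splits, two-sided).

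The fall of Gcat was in the liver channel. Its scanner Cy5 signals ran from 9448 to 12006 on 5 anti-GCGR arrays and reached 20237 on array 5, against 17485 to 24249 on PBS arrays. The normalized Cy5 difference was -0.80, and the Cy3 difference, which compares identical reference RNA, was 0.01. The arrays came on 3 slides, each with both groups, and within the slides the anti-GCGR minus PBS difference was -1.04, -0.33 and -1.02, with array 5 on the second. Without that array it was -0.98 (limma adjusted p = 3.87e-06). Gcat kept its call under all 13 other settings planned and in all 11 fits without 1 array, at -1.005 to -0.76 throughout. Its 1 probe was even and well above background on all 11 arrays. The filter, probe and uneven-spot settings therefore left its value at -0.81, and the authors' nearly identical ratios gave -0.81 too. The value of -1.005 came without both arrays numbered 5.

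Tdh, which makes the substrate of Gcat, did not pass. It measured 0.10, 0.08, -0.12, -0.12, 0.13 and -0.11 on anti-GCGR arrays 1 to 6, against 0.01, -0.002, 0.11, 0.09 and 0.01 on the PBS arrays in order. The anti-GCGR arrays lay on both sides of the PBS range. The log2 fold change was -0.05 ± 0.06 (SE, 95% interval -0.18 to 0.09, limma adjusted p = 0.650), and -0.01 on its other probe. The signal was dim, at 49 to 84.5 scanner units in anti-GCGR livers and 55 to 93 in PBS livers over a background near 26. With the scanner software's own ratio Tdh passed at -0.50 (limma adjusted p = 0.0386), the one setting of those planned that did so.

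Psph was the member that rose. Its values were -1.90, -1.89, -2.01, -1.91, -2.43 and -2.004 on anti-GCGR arrays 1 to 6, against -2.44, -2.47, -2.39, -2.37 and -2.49 on PBS arrays 1, 3, 4, 5 and 6. Again 5 of 6 anti-GCGR arrays lay on one side of all PBS arrays, here above, and array 5 was within the PBS range. The means were -2.03 ± 0.21 (SD, n = 6) and -2.43 ± 0.05 (SD, n = 5) for anti-GCGR and PBS, a log2 fold change of 0.41 ± 0.09 (SE, 95% interval 0.22 to 0.60, limma adjusted p = 0.0125, exact permutation p = 0.00866, two-sided).

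A second Psph probe rose by 0.35 ± 0.07 (SE, limma adjusted p = 0.0106 over 20707 named probes, of which 13.0% passed, 7.95% upward and 5.02% downward). Within the 3 slides the Psph difference was 0.51, 0.21 and 0.47, and without anti-GCGR replicate 5 it was 0.49 (limma adjusted p = 6.35e-05). Part of the ratio came from each dye, with a Cy5 difference of 0.27 and a Cy3 difference of -0.14. Among the scalings tried, the call was lost with the Cy5 channel alone (0.26, limma adjusted p = 0.0855) and with median centring (0.29, limma adjusted p = 0.0606). On the 10 arrays without anti-GCGR replicate 5, settings chosen after the data were seen, it passed under both scalings. With the sample number as a block the Psph call was lost as well (0.38, limma adjusted p = 0.0526).

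Phgdh, the first enzyme of serine synthesis, measured -2.88 to -2.72 on anti-GCGR arrays (median -2.80) and -2.99 to -2.76 on PBS arrays (median -2.85), and the groups overlapped almost fully. The log2 fold change was 0.05 ± 0.05 (SE, 95% interval -0.07 to 0.16, limma adjusted p = 0.607), and 0.06 on its other probe. Psat1, the enzyme between Phgdh and Psph, is not one of the 10 and rose by 0.27 ± 0.07 (SE, limma adjusted p = 0.0205), to -4.42 ± 0.12 in anti-GCGR livers (SD, n = 6) against -4.69 ± 0.10 in PBS livers (SD, n = 5), without overlap. Among the fits that left out 1 array its call was lost without PBS replicate 4 (limma adjusted p = 0.0515), and among the scalings and probe rules with median centring (0.129) and with the mean of its probes (0.172). All 3 serine synthesis genes were lower in liver than in the reference RNA.

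**Figure D2:**
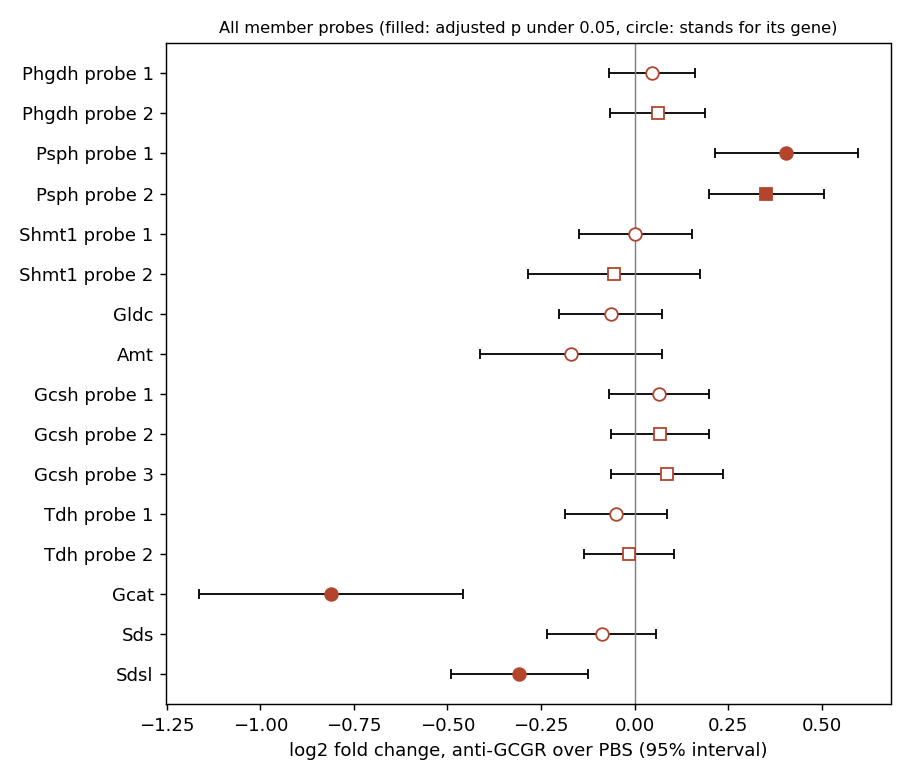
Log2 fold change of each of the 16 member probes, anti-GCGR over PBS (horizontal axis), with 95% intervals, filled where the adjusted p was under 0.05 and round where the probe stands for its gene. Both Psph probes lie right of 0, at 0.41 and 0.35, the single probes of Gcat and Sdsl lie left of it, and every other interval spans 0.

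Sdsl, a serine and threonine dehydratase whose gene adjoins Sds on chromosome 5, fell in anti-GCGR livers. Its values were 1.37, 1.35, 1.40, 1.40, 1.57 and 1.20 on anti-GCGR arrays 1 to 6, against 1.70, 1.56, 1.52, 1.69 and 1.98 on the PBS arrays in order. Here too 5 of 6 anti-GCGR arrays were below every PBS array, and array 5 was the one within the PBS range. The means were 1.38 ± 0.12 (SD, n = 6) and 1.69 ± 0.18 (SD, n = 5) for anti-GCGR and PBS. The log2 fold change was -0.31 ± 0.09 (SE, 95% interval -0.49 to -0.12, limma adjusted p = 0.0306, exact permutation p = 0.00866, two-sided), and within the slides -0.23, -0.22 and -0.47.

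The direction of Sdsl held in all 27 other fits, but its call was less firm than that of Gcat. It was lost in 8 of the 11 fits that left out 1 array, with limma adjusted p of 0.0685, 0.0513 and 0.0584 without PBS replicates 1, 5 and 6, and of 0.0554, 0.0555, 0.0540, 0.0566 and 0.0603 without anti-GCGR replicates 1, 2, 3, 4 and 6. Without anti-GCGR replicate 5 it was -0.35 (limma adjusted p = 0.00938). Among the scalings tried, its call was lost with the Cy5 channel alone (-0.32, limma adjusted p = 0.0550), and its Cy3 difference was -0.01. With the sample number as a block the Sdsl call was lost too (-0.30, limma adjusted p = 0.108).

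Sds, the main serine dehydratase of the liver, had a liver over reference ratio of 5.71 to 5.96 on anti-GCGR arrays (median 5.85) and of 5.97, 6.00, 5.75 and 5.98 on PBS arrays 1, 4, 5 and 6. The spot of PBS replicate 3 was marked uneven and dropped. Neither group stood clear of the other, and the log2 fold change was -0.09 ± 0.07 (SE, 95% interval -0.23 to 0.06, limma adjusted p = 0.418).

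The separate dyes of that spot behaved differently from the ratio. Scanner Cy5 signals of Sds were 6434, 15659.5, 16613.5, 9387, 27935 and 12008 on anti-GCGR arrays 1 to 6, against 18082, 26672, 29958.5, 20602 and 28439 on PBS arrays 1, 3, 4, 5 and 6. Thus 5 of the 6 anti-GCGR arrays were below every PBS array and array 5 lay within the PBS range, the same arrangement as for Gcat. The Cy3 signals, from the reference RNA used on every array, were 136, 292, 300.5, 184, 491 and 227.5 on the anti-GCGR arrays, against 307, 526, 417, 325 and 473 on the PBS arrays. Across the anti-GCGR arrays they had the same order as the Cy5 signals, and again all anti-GCGR arrays but the array numbered 5 were below every PBS array.

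After normalization, and without the uneven spot, the anti-GCGR minus PBS difference of Sds was -0.80 for Cy5 and -0.72 for Cy3, so that the ratio of the dyes cancelled most of the difference. A Cy3 difference of at least that size was found for 28 of the 15972 genes (0.175%), Sds included, and all 28 had a Cy5 difference of the same sign. The median size of the Cy3 difference was 0.0391 over all genes, and for the other 9 members it lay between -0.14 and 0.10. From the dimmest to the brightest array Sds spanned 4.66-fold in Cy5 and 3.87-fold in Cy3. What moved the Cy3 signal of the spot was not tested.

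Whether Sds passed depended on the scaling and on anti-GCGR replicate 5, and its size and sign on the values used. In the Cy5 channel alone, again without the uneven spot, it was -0.84 (limma adjusted p = 0.0870). Without anti-GCGR replicate 5 as well, a setting chosen after the data were seen, it was -1.06 (limma adjusted p = 0.00443). With median centring the ratio was -0.28 (limma adjusted p = 0.0317), and with the uneven spot kept it was -0.02 under loess (limma adjusted p = 0.920). With the scanner software's own ratio the sign turned, to 0.08 (limma adjusted p = 0.646). No direction is therefore given for the Sds transcript.

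**Figure D3:**
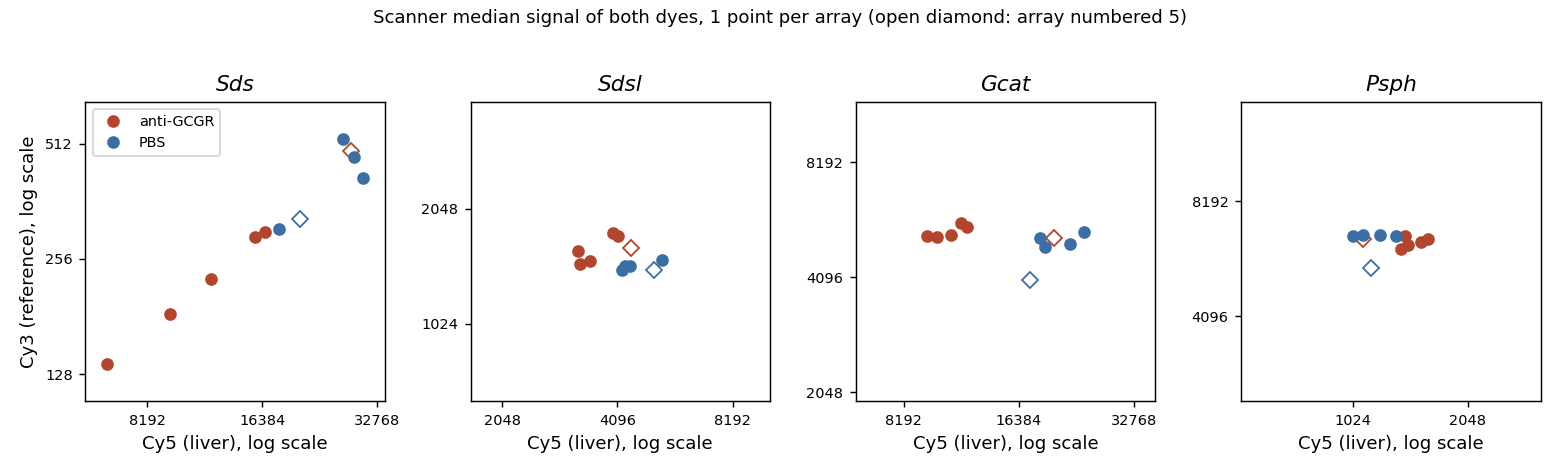
Scanner median signals of Sds, Sdsl, Gcat and Psph in Cy5 (horizontal axis, liver) and Cy3 (vertical axis, reference RNA), both on log scales, 1 point per array, with a diamond for the array numbered 5. The Sds points run along a diagonal from 6434 and 136 on anti-GCGR replicate 1 up to the PBS arrays. Gcat points other than array 5 separate mainly along Cy5. Their unnormalized Cy3 signals were 5197 to 5683.5 on anti-GCGR arrays and 4018 to 5374.5 on PBS arrays, array 5 included.

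Of the 3 glycine cleavage members 0 passed (limma; 0 also at an unadjusted p under 0.05). Gldc, the glycine decarboxylase, measured 6.75 to 7.05 on anti-GCGR arrays (median 6.88) and 6.85 to 7.11 on PBS arrays (median 6.92). Its log2 fold change was -0.06 ± 0.06 (SE, 95% interval -0.20 to 0.07, limma adjusted p = 0.549). Liver exceeded the reference by almost 7 on the log2 scale in both groups, and the Cy3 difference of Gldc was 0.01.

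Amt, the aminomethyltransferase, ran from 1.21 to 1.67 in anti-GCGR livers (median 1.45) and from 1.23 to 1.84 in PBS livers (median 1.66). Its log2 fold change of -0.17 ± 0.11 (SE, 95% interval -0.41 to 0.08, limma adjusted p = 0.349) had the widest interval of the members that did not pass. Its reference signal was well above background on 4 of 11 arrays. Gcsh, the lipoate-bearing protein that carries the intermediate between the others, ran from 1.66 to 1.97 in anti-GCGR livers (median 1.82) and from 1.71 to 1.79 in PBS livers (median 1.78). Of the anti-GCGR arrays, 4 were above and 1 below every PBS array. The log2 fold change was 0.06 ± 0.06 (SE, 95% interval -0.07 to 0.20, limma adjusted p = 0.526), and 0.07 and 0.09 on its other probes.

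Dld, the lipoamide dehydrogenase that this system shares with other complexes, is not one of the 10. It was 0.49 ± 0.15 in anti-GCGR livers (SD, n = 6) and 0.68 ± 0.12 in PBS livers (SD, n = 5), a difference of -0.18 ± 0.08 (SE, limma adjusted p = 0.145). It passed without anti-GCGR replicate 5 (-0.24, limma adjusted p = 0.0235) and with median centring (-0.30, limma adjusted p = 0.0368).

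Shmt1 ran from 2.89 to 3.26 in anti-GCGR livers (median 3.08) and from 2.996 to 3.21 in PBS livers (median 3.09). Its means were 3.10 in both groups (SD 0.14, n = 6 with the antibody, and 0.08, n = 5 with PBS), with a 95% interval of the log2 fold change of -0.15 to 0.15 (limma adjusted p = 0.990). A second probe gave -0.05. The mitochondrial Shmt2 differed by -0.05 ± 0.06 (SE, limma adjusted p = 0.645). For the 7 members that did not pass, the lowest bound of a 95% interval was -0.41 (Amt) and the highest 0.20 (Gcsh). Other intervals were narrower, as for Phgdh at -0.07 to 0.16. For each gene, log2 differences within its own interval were not resolved by 11 arrays. The interval of Sds holds for its ratio only. All these intervals hold for the main processing and do not bound the values of dim genes under other processing. Tdh was -0.08 at a background offset of 16 and, outside its interval, -0.50 with the scanner software's ratio. Amt was -0.25 and -0.37 under these settings, both within its interval. In bulk liver, fewer cells of a type and less RNA per cell cannot be told apart.

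**Figure D4:**
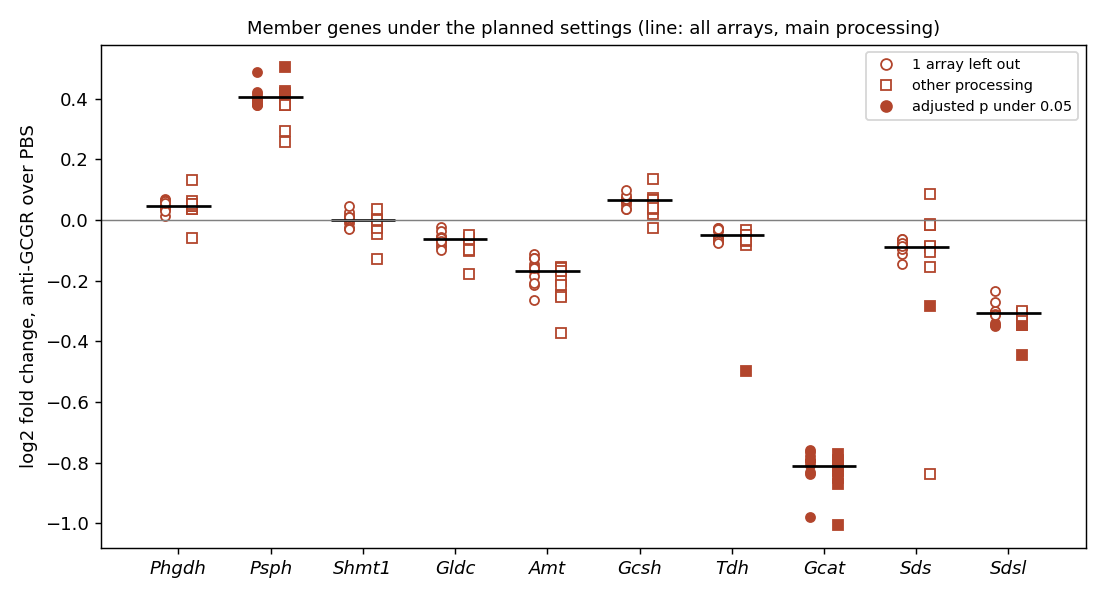
Log2 fold change of each member gene, anti-GCGR over PBS (vertical axis), with 1 array left out (circles) or under the other planned settings (squares). Symbols are filled where the adjusted p was under 0.05, and a line marks the value on all 11 arrays. The squares include the fit without both arrays numbered 5. Gcat stays between -1.005 and -0.76 and filled throughout, Sds spreads from -0.84 to 0.08, and Tdh has 1 filled square at -0.50.

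Around the 10 enzymes, 51 further genes of serine, glycine and one-carbon metabolism were listed and 48 could be tested. Of these 8 rose, 5 fell and 35 did not pass, 27.1% of the list beside 14.6% of all genes tested, with a median log2 fold change of 0.04 beside 0.01. The count of 13 was 7 without PBS replicate 3, 8 without PBS replicate 1 or 4, 7 without anti-GCGR replicate 4 and 22 without anti-GCGR replicate 5. The split of the calls moved with the scaling, to 1 up and 11 down with median centring, 3 up and 7 down with the scanner software's ratio, and 8 up and 14 down with the Cy5 channel alone.

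Rises and falls below are log2 fold changes. Of all genes tested 8.98% rose and 5.66% fell, and the counts of the short lists were not tested against those shares. Among 16 other serine and glycine enzymes tested, 3 rose and 0 fell (limma; 7 were higher and 2 lower at an unadjusted p under 0.05). Beside Psat1 these were Grhpr and Hao1. Grhpr, which reduces glyoxylate and hydroxypyruvate, rose by 0.61 ± 0.12 (SE, limma adjusted p = 0.00869) and kept its call under every setting run. Hao1, the peroxisomal enzyme that makes glyoxylate, rose by 0.44 ± 0.13 (SE, limma adjusted p = 0.0367) and passed in 4 of the 11 fits without 1 array (highest adjusted p 0.0937). On the route from choline to glycine, 1 of 7 genes rose and 1 fell. Chdh, which opens that route, rose by 0.36 ± 0.09 (SE, limma adjusted p = 0.0238, called in 6 of 11 such fits, highest 0.0644). Sardh, which releases glycine from sarcosine at its end, fell by 0.42 (limma adjusted p = 0.0377, called in 4 of 11, highest 0.0835).

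Of 14 genes of the folate cycle, which takes up the one-carbon units of serine and glycine, 3 rose and 0 fell (limma; 6 were higher and 3 lower at an unadjusted p under 0.05). Mtr, the methionine synthase, rose by 0.24 ± 0.05 (SE, limma adjusted p = 0.00840) to -0.30 ± 0.06 in anti-GCGR livers (SD, n = 6), against -0.53 ± 0.03 in PBS livers (SD, n = 5), with no overlap. The mitochondrial Mthfd2l, which oxidizes methylene-folate, rose by 0.38 ± 0.08 (SE, limma adjusted p = 0.0115), also without overlap, and both passed in all 11 fits without 1 array. With median centring neither Mtr (limma adjusted p = 0.161) nor Mthfd2l (0.0558) passed, and with the scanner software's ratio Mthfd2l did not (0.0667).

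Serine also leaves through cystathionine toward cysteine. Cth, which cleaves cystathionine, fell by 1.27 (SE 0.33, limma adjusted p = 0.0257), to 3.99 ± 0.86 in anti-GCGR livers (SD, n = 6) against 5.26 ± 0.22 in PBS livers (SD, n = 5), and passed in 5 of the 11 fits without 1 array (highest adjusted p 0.0598). It was -1.57 without anti-GCGR replicate 5. Of 7 carriers of serine and glycine tested, 3 fell and 1 rose. Slc38a2, a sodium-coupled carrier of small neutral amino acids, fell by 0.55 (limma adjusted p = 0.00413) without overlap of the groups. Slc25a38, the mitochondrial glycine carrier, fell by 0.43 (limma adjusted p = 0.00874), and Slc1a4, a plasma membrane carrier of serine, fell by 0.39 (limma adjusted p = 0.0131). With the sample number as a block Cth lost its call (limma adjusted p = 0.0674), as did Slc25a38. Each of the 3 carriers that fell passed in all 11 fits without 1 array. Slc6a9, a glycine transporter, rose by 0.52 ± 0.13 (SE, limma adjusted p = 0.0245) and passed in 6 of those 11 fits (highest adjusted p 0.0630). It did not pass with that block (limma adjusted p = 0.0723), with median centring (0.0660) or with the scanner software's ratio (0.0516). Neither gene of lipoate supply passed, with Lipt1 at 0.12 (limma adjusted p = 0.298).

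**Figure D5:**
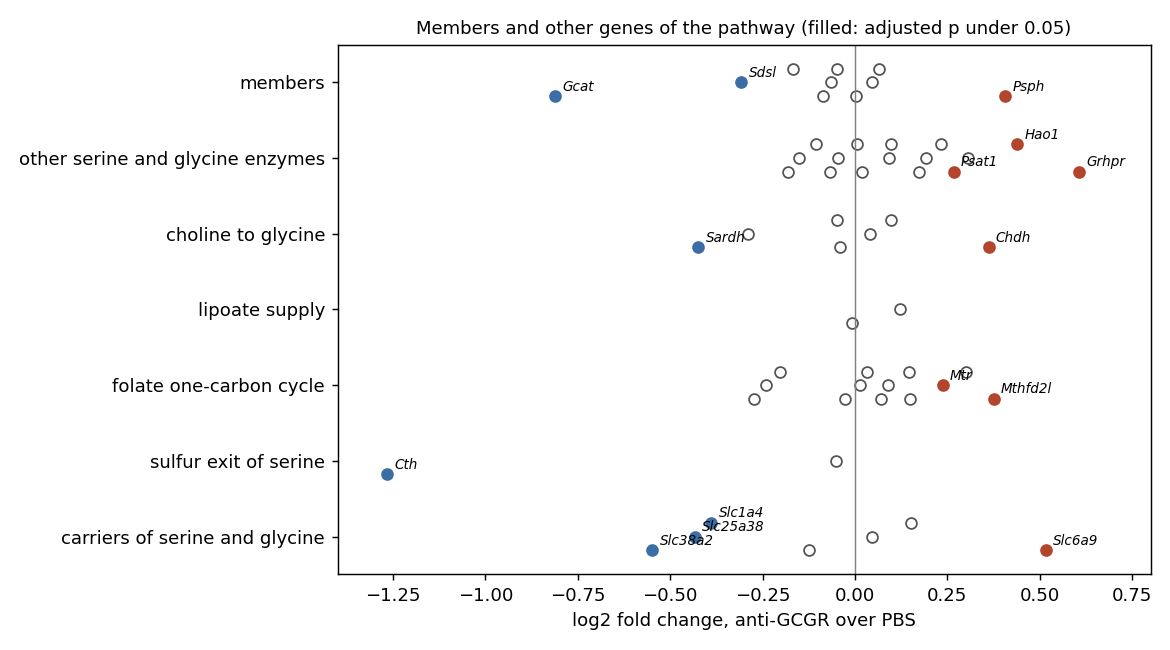
Log2 fold change, anti-GCGR over PBS (horizontal axis), of the 10 members and of other tested genes by list, 1 point per gene, filled and named where the adjusted p was under 0.05. Cth at -1.27 and Gcat at -0.81 are the lowest points, and Grhpr at 0.61 is the highest.

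Some markers of other liver cells differed between the groups, where 8.98% of all genes tested rose and 5.66% fell. Of 7 stellate cell and fibroblast markers, 4 rose, and their summed normalized Cy5 signal was 25612 to 41161 in anti-GCGR livers and 23880 to 26088 in PBS livers. Of 6 endothelial markers 1 rose, with sums of 14205 to 17956 and 12373 to 13937 in anti-GCGR and PBS livers. Among macrophage markers 1 of 6 rose, among adipocyte markers 1 of 4 and among red blood cell markers 1 of 2 tested (4 listed). The sums of these lists overlapped between anti-GCGR and PBS livers. Macrophage sums were 29063 to 40401 against 27721 to 38285, and red blood cell sums 40820 to 73543 against 22844 to 49966. An unadjusted p under 0.05 (limma) was found for 5 stellate, 4 endothelial, 3 macrophage, 3 adipocyte and 1 red blood cell markers. The adipocyte markers ran in both directions. With lists this short, 1 gene past the threshold does not describe a cell type. Of the 5 biliary, 3 kidney and 1 pancreas markers tested 0 passed (limma; 1, 1 and 0 had an unadjusted p under 0.05). Their part in the values of Psph, Gcat and Sdsl was not tested.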

How the data were processed

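Liver RNA of 6 anti-GCGR and 5 PBS samples was measured on two-colour Agilent arrays. The deposited scanner tables hold, per the file headers, unlogged median intensity values per spot for each dye and its local background, a log10 ratio from the scanner software, and quality flags of 0 or 1. The submitters' processing notes name Agilent Feature Extraction 11, and the headers give its version as 11.5.1.1. A table of log2 ratios was deposited too, and the sources used here do not give its processing. These log2 ratios of the authors ran as Cy5 over Cy3 without centring per gene (column medians -0.0028 to 0.0081, correlation with the values computed here at least 0.99996, and 0.876 to 0.887 with the scanner ratio), and they served as an alternative.

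Arrays were corrected by normexp (offset 50) and loess, with controls at weight 0, in limma 3.58.1 (R 4.3.3). Spots marked uneven were dropped and spots of a probe averaged. Probes were named through RefSeq accessions (GRCm38.p6): 26581 of 39429 probes, for 20144 genes. A probe was kept if its Cy5 signal was well above background on 5 or more of the 11 arrays, and the brightest stood for its gene (15972 genes, 3984 with several kept probes). Normalized values and differences of single dyes are after loess and scaling of mean brightness between arrays (Aquantile). The setting called the Cy5 channel alone is another measure: log2 Cy5 after normexp, quantile normalized between arrays without loess. Groups were compared by lmFit and eBayes, two-sided, and p-values were adjusted after Benjamini and Hochberg over every gene tested. The fit was tested on simulated data.

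The number of arrays limits the precision. Settings tried were 13 other planned choices, each array left out in turn, and 3 settings chosen after the data were seen. The 13 were choices of scaling, filter, block, probe and uneven spots, and the removal of both arrays numbered 5. For a gene with 1 probe, even and bright on all arrays, the filter, probe and spot choices leave the fold change unchanged. The authors' log2 ratios are nearly the same as the values used here. All 10 members are named, along with Psat1, Shmt2 and Dld, and of each further list the genes past the threshold, at most 3 in each direction, or else the one with the smallest p, and 1 gene that this rule picks is not reported here. Members and lists were chosen with earlier results of these data known. Probe levels of different genes were not compared. No dye swap was made, so a dye effect on a probe stays in its ratio.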

Additional observations from a re-analysis of the deposited data

Results flagged for a closer look

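In 20 groups of arrays (10 genes in each of 2 groups), 3 had a single array far from the others by Dixon's criterion at the 95% level, where chance flags about 1 in 20. Gcat was at 2.10 on anti-GCGR replicate 5, a gap of 0.824 of the range of its group. Psph was at -2.43 on the same array, with a gap of 0.789 of the range. Sds was at 5.75 on PBS replicate 5, with a gap of 0.856 of the range among the 4 PBS arrays that had a usable spot. Both anti-GCGR values lay within the PBS range of their gene, and the results without that array stand beside those with it in the report.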

How the results depend on the processing

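Gcat, Psph and Sdsl kept their direction under every setting run, while Sdsl and Psph did not keep their calls throughout. With the Cy5 channel alone 1 member passed in place of 3 (0 rose and 1 fell), and 22 of the other listed genes passed, 14 of them downward. With median centring 0 members rose, 581 of all genes rose and 2145 fell, and of the other listed genes 1 rose and 11 fell; with the scanner software's ratio 3 of these rose. Without both arrays numbered 5, 3669 of all genes passed, 1579 of them downward, and 9 of the other listed genes fell. Samples of the same number shared a slide, and the correlations of their deviations were -0.12 to 0.14. So few pairs cannot settle whether the numbers pair the samples. Under a replicate block 1 member passed (0 rose, 1 fell), as did 1049 of all genes (714 up, 335 down) and 5 of the other listed genes (3 up, 2 down). Among the genes named, the block left the directions as they were, but the limma adjusted p was 0.0526 for Psph, 0.108 for Sdsl, 0.0556 for Psat1, 0.0510 for Mthfd2l, 0.0526 for Slc25a38, 0.133 for Hao1, 0.0741 for Sardh, 0.0674 for Cth and 0.0723 for Slc6a9. Of the 13 other settings, the block included, Hao1 was called in 9, Psph, Psat1, Chdh, Mthfd2l and Slc6a9 in 10, Sdsl and Sardh in 11, Mtr, Cth and Slc25a38 in 12, and Gcat, Grhpr, Slc38a2 and Slc1a4 in all 13.

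Leaving out 1 array at a time gave 2 to 3 members past the threshold (1 rose, 1 to 2 fell), 1240 to 3868 of all genes (782 to 2294 up, 458 to 1574 down) and 7 to 22 of the other listed genes (4 to 12 up, 3 to 10 down). Signs turned only for values near 0 and for Sds. With the scanner software's ratio Sds was 0.0848 (0.154 on 10 arrays without anti-GCGR replicate 5) and Shmt1 -0.0269 (-0.0290). With median centring Gcsh was -0.0258 (-0.0427 on those 10 arrays), Shmt1 -0.127 (-0.127) and Phgdh -0.0601 (-0.0783). With Cy5 alone Shmt1 was -0.0459 (-0.0750) and Lipt1 -0.0484. Shmt1 was also -0.0034 at offset 16, -0.0265 with the mean of its probes, -0.0021 with slide as a block, and -0.0298 to 0.0453 with 1 array left out. Sds had no value when a probe needed 11 usable arrays above background, because its uneven spot on PBS replicate 3 had been dropped; it was above background on all 11. The causes of the other changes were not tested.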
